A study of Sus scrofa with 6 samples.

Results

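FBXO32, TRIM63, FOXO1 and FOXO3 were followed in porcine longissimus dorsi muscle (LDM), the glycolytic muscle of the study, and psoas major muscle (PMM), its oxidative muscle. Their probes were all non-control probes of the array that carried a member's symbol as gene name, its symbol in brackets in the description, or its full protein name in the description. This gave 6 of 43603 probes: 3 for FBXO32, 1 for FOXO1, 2 for FOXO3 and 0 for TRIM63. TRIM63 could therefore not be described. Each muscle was represented by 3 Agilent arrays hybridized in a single colour. The muscles came from 3 unrelated female Landrace pigs, slaughtered at 210 days of age after 24 h without feed but with free access to water. Both muscles were taken from these same 3 pigs. The pigs were on the same diet and fasted alike, so fed muscle is not among the samples.

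FBXO32 (atrogin-1) and TRIM63 (MuRF1) encode the E3 ubiquitin ligases that are best known from wasting muscle, where they mark proteins for breakdown by the proteasome. FBXO32 is the substrate-binding subunit of an SCF complex, built on the scaffold CUL1, whereas TRIM63 is a RING finger protein that binds the sarcomere. FOXO1 and FOXO3 are forkhead transcription factors that switch on both ligases and autophagy genes when insulin and IGF1 signalling through AKT is low, as in fasting. AKT phosphorylates the FOXO proteins and holds them in the cytoplasm, so their activity does not have to follow their mRNA level.

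The 6 probes were oligonucleotides of 60 bases. A probe reads a gene reliably only if it does not resemble other sequences. Each was compared, in the strand given, with all the other probes of the array for exact shared runs. Transcripts were not searched, so whether a probe binds those of other genes was not tested. The stretch of 30 bases that held the longest run shared with another probe is printed for each probe, with that run in capitals. The shared run was 13 bases in 5 of the probes and 15 bases in the dim FOXO3 probe.
FBXO32, probe A_72_P110111: cattctagATTCCAGAAGATTcaactatgt
FBXO32, probe A_72_P302954: AAACTTCTGAGATaagtcattgagaggaca
FBXO32, probe A_72_P407903: gaacacaaGATAGGATGCTCTttgtttaca
FOXO1, probe A_72_P223527: gagaagcaGTCCAAAGATGTCtttcacccc
FOXO3, probe A_72_P375183: ctgtccacTCATTGCCAAATGccactaaca
FOXO3, probe A_72_P191741: tgatataTGAAGACTCTTTTTCttggcaaa
The files mark these probes as unmapped, and no genome was used here, so chromosome, exon or UTR cannot be given for them. One further probe, A_72_P180791, was described by the older name forkhead box O1A and assigned to the same transcript cluster as the FOXO1 probe. It lay outside the rule and is given only beside FOXO1.

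Values are normalized signals, the log2 of the spot intensity minus the log2 of the 75th percentile of its array, so a value of 0 lies at that percentile. Levels of different probes cannot be set against each other, because probes bind with different strength. Of the spots on an array, 58.5% to 72.4% were well above the background, and none was saturated. Each of the 6 probes passed this mark on every array. Arrays with one replicate number shared their scan day. Replicates 2 and 3 of LDM also shared a slide with replicates 2 and 3 of PMM, whereas replicate 1 was split over separate slides. The label on RNA extraction speaks of adipose tissue. All 6 skeletal muscle markers were above the background on every array, but so were 6 of the 7 adipocyte markers with a probe, and the levels of these probes cannot be compared. The samples were taken as muscle, as their tissue labels say. The summed signal of 7 slow fibre markers was 2660 to 4310 in PMM and 1840 to 2520 in LDM, without overlap. That of 8 fast fibre markers was 4260 to 7040 in PMM and 3730 to 6160 in LDM, with overlap and with a median difference of 0.05. No probe was found for the erythrocyte markers. Less RNA per cell and fewer cells of a type cannot be told apart in whole muscle.

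FBXO32 was expressed in both muscles, and it varied more between arrays of the same muscle than between the muscles. For A_72_P407903, its brightest probe, the normalized signal was 7.87, 7.40 and 6.79 in LDM and 8.21, 7.25 and 6.22 in PMM, always in the order of replicates 1, 2 and 3. The highest and the lowest value of all 6 were thus both found in PMM, and the LDM values lay within their range. The mean was 7.35 ± 0.54 in LDM and 7.23 ± 1.0 in PMM (SD, n = 3 each), which made PMM lower by a log2 value of only -0.13 (SE 0.53, 95% interval -1.33 to 1.08). Here and below, SEs and intervals are from the fit that did not pair the arrays, unless stated otherwise.

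The other FBXO32 probes gave the same picture. A_72_P302954 read 6.89, 6.60 and 5.93 in LDM and 7.23, 6.19 and 5.16 in PMM, a difference of -0.28 (SE 0.53). A_72_P110111, the dimmest of the probes of this gene, read 4.07, 3.42 and 2.99 in LDM and 4.35, 2.82 and 2.20 in PMM, a difference of -0.37 (SE 0.56). In all 3 probes PMM was higher in the pair of replicate 1, by 0.28 to 0.35, and lower in the pairs of replicates 2 and 3. Fits with a single array left out did not pair the arrays, so its partner in the other muscle stayed in. Without PMM replicate 3 the differences became 0.09 to 0.38, that is, PMM was higher. Without LDM replicate 1 that of A_72_P407903 was 0.13. Without PMM replicate 1 the differences of the 3 probes were -0.98 to -0.62. With the slide as a random block they were -0.62 for A_72_P110111, -0.53 for A_72_P302954 and -0.31 for A_72_P407903. Spots of A_72_P302954 on 2 arrays carried a flag for an uneven background, and its difference was -0.72 without them.

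**Figure D1:**
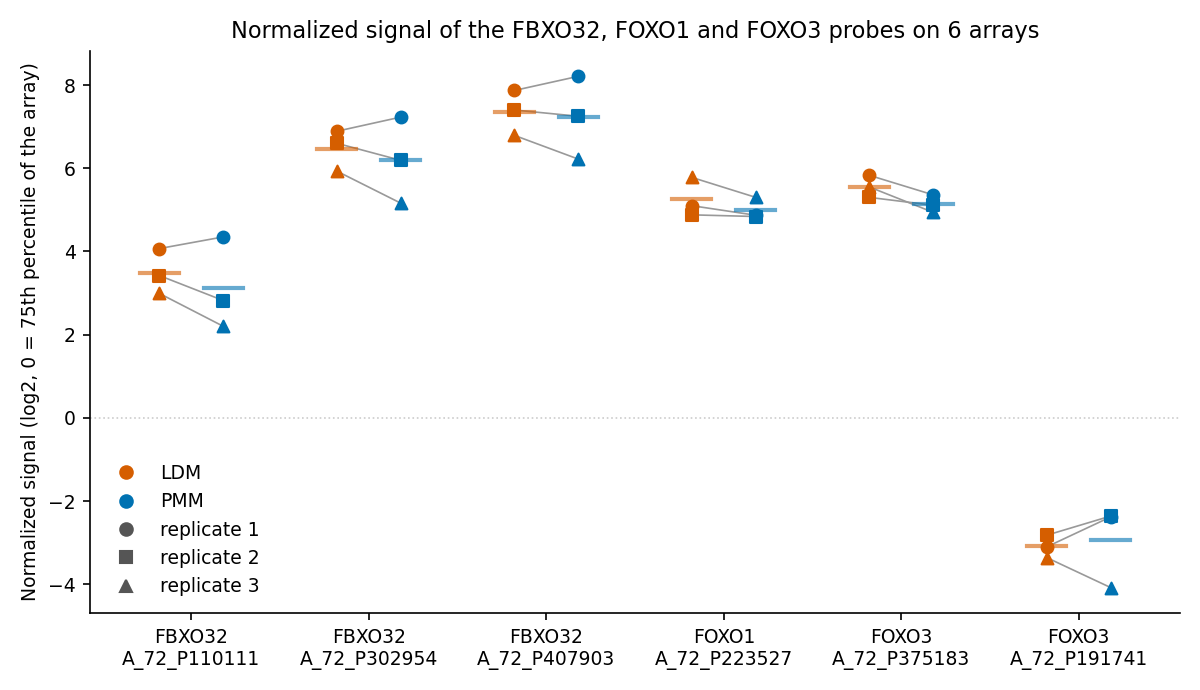
Normalized signal (y axis, log2, 0 at the 75th percentile of the array) of the 6 probes (x axis) on the 3 arrays of LDM and the 3 of PMM. Grey lines join arrays of the same replicate number and short bars are means. Levels are not comparable between probes. Within each probe the values of the muscles overlap. The FBXO32 probes have replicate 1 on top and replicate 3 at the bottom in both muscles.

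FOXO1, which insulin signalling restrains in liver and muscle, was read by A_72_P223527. Its normalized signal was 5.10, 4.88 and 5.78 in LDM and 4.87, 4.84 and 5.30 in PMM. PMM was lower in each of the 3 pairs, by -0.23, -0.04 and -0.49, but the PMM value of replicate 3 exceeded both other LDM values. The mean was 5.26 ± 0.47 in LDM and 5.0 ± 0.25 in PMM (SD, n = 3 each), a difference of -0.25 (SE 0.34, 95% interval -1.04 to 0.53). Without LDM replicate 3 the difference was 0.01, in a fit that did not pair the arrays and kept PMM replicate 3. The pairs of replicates 1 and 2 alone stood at -0.23 and -0.04. The spot of LDM replicate 3 also carried a flag for an uneven background, and leaving out all spots so flagged gave 0.03.

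The probe outside the rule, A_72_P180791, read -0.47, -1.02 and -0.64 in LDM and -0.68, -0.77 and -0.84 in PMM. Its difference was -0.05 (SE 0.29), with PMM lower in 2 of 3 pairs. Over the 6 arrays it followed the FOXO1 probe only loosely (Pearson's r = 0.29, a description over 6 arrays that share their scaling).

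FOXO3, which drives both ligases and the autophagy genes in fasted muscle, showed the largest difference of the brightest probes. A_72_P375183 read 5.83, 5.30 and 5.55 in LDM and 5.36, 5.11 and 4.94 in PMM. PMM was lower in each of the 3 pairs, by -0.47, -0.18 and -0.61. The groups overlapped only because PMM replicate 1 exceeded LDM replicate 2. The mean was 5.56 ± 0.27 in LDM and 5.14 ± 0.21 in PMM (SD, n = 3 each), or 1.34-fold higher in LDM (log2 difference -0.42, SE 0.30, 95% interval -1.11 to 0.27). Its direction held under all 23 alternatives, with differences between -0.62 and -0.13. Several of these could not move the difference from -0.42, such as the exact tests, the replicate block and the changes of the detection filter.

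The second FOXO3 probe, A_72_P191741, was dim and did not follow the first. It read -3.10, -2.82 and -3.36 in LDM and -2.38, -2.36 and -4.08 in PMM, a difference of 0.15 (SE 0.49) in the other direction. Only the pair of replicate 3 was lower in PMM. The gap between the FOXO3 probes varied by 1.55 over the 6 arrays (r = 0.16), whereas the gaps between the FBXO32 probes varied by 0.26 to 0.63 (r = 0.96 to 0.99). Spot intensities of A_72_P191741 were 39 to 153 units, against 20507 to 38208 for A_72_P375183.

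None of the 6 probes differed between the muscles in the test across all probes (limma, adjusted p = 1 for each probe). The background was the same, with 0 of 25835 probes called (0%), a smallest adjusted p of 0.0502, and 691 probes (2.67%) at an unadjusted p under 0.05, a level that none of the members reached. Exact two-sided permutation of the 6 arrays gave p = 0.7, 0.7 and 0.9 for the FBXO32 probes in the order of their listing above. It gave 0.5 for FOXO1, and 0.2 and 0.8 for the FOXO3 probes, where 0.1 is the smallest p that 3 against 3 arrays can give. With the replicate number as a block, limma called 16 probes (0.0619%) but again none of the 6, whose adjusted p ranged from 0.461 for A_72_P375183 to 0.887. The interval of A_72_P375183 was then -0.86 to 0.02. For A_72_P110111, A_72_P302954 and A_72_P407903 it was -1.01 to 0.27, -0.92 to 0.36 and -0.69 to 0.44, with SEs of 0.25, 0.25 and 0.22. That of FOXO1 was -0.69 to 0.19 (SE 0.17) and that of A_72_P191741 was -0.63 to 0.94. Of all probes with a value on every array, 5.91% had values that did not overlap between the muscles, and 0 of the 6 members did. PMM was lower in all 3 pairs for 18.6% of all probes and for 2 of the 6 members, the FOXO1 probe and A_72_P375183. On simulated arrays with the spread of all probes tested, 0 of 50 probes with a true log2 change of 1 were called, with or without the block. The members differed by less than that, so the test over all probes had little power for them with 3 arrays per muscle. The simulation covered neither the spread of each member nor the fit of named genes by their brightest probe, given below.

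**Figure D2:**
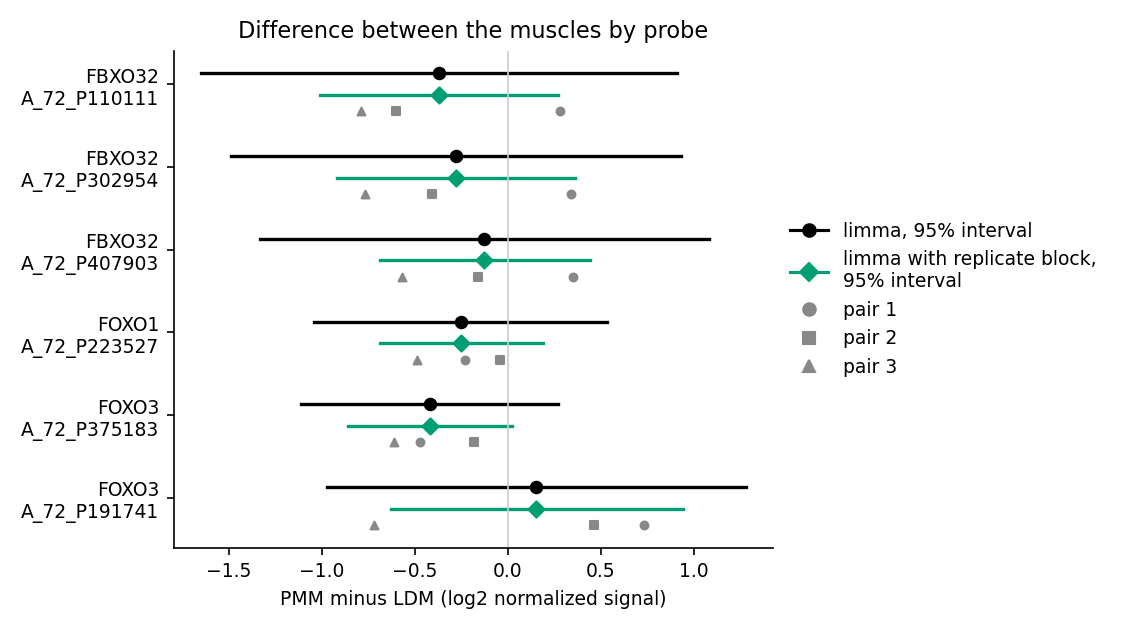
Difference PMM minus LDM (x axis, log2 normalized signal) for the 6 probes (y axis). Black circles with lines are limma estimates with 95% intervals, green diamonds the same with the replicate number as a block, and grey marks the differences of the 3 pairs of equal replicate number. All intervals include 0, and that of the brighter FOXO3 probe reaches 0.02 with the block.

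The spread over replicates was wide for FBXO32, somewhat below the median of all probes for FOXO1 and narrow for the bright FOXO3 probe. Within a muscle the SD of the FBXO32 probes was 0.80 to 0.87, larger than that of 86.7% to 90.4% of all probes tested, for which the median was 0.47. The bright FBXO32 probe spanned a 2.11-fold range over the 3 LDM arrays and a 3.98-fold range over the 3 PMM arrays. In contrast, the SD was 0.38 for FOXO1 and 0.24 for A_72_P375183, larger than that of 34.4% and 13.6% of all probes. For the dim A_72_P191741 it was 0.73.

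The order of the replicates was shared by the muscles for FBXO32. All 3 of its probes were highest in replicate 1 and lowest in replicate 3 in both LDM and PMM. Means over both muscles for A_72_P407903 were 8.04, 7.32 and 6.50 for replicates 1, 2 and 3. FOXO1 had its highest value in replicate 3 in both muscles (means 4.99, 4.86 and 5.54). An F test of the replicate number, chosen after these values had been seen, was run in the limma fit with muscle and number. The adjusted p was 0.0397, 0.0460 and 0.0359 for A_72_P110111, A_72_P302954 and A_72_P407903, 0.103 for FOXO1, and 0.298 and 0.114 for the bright and the dim FOXO3 probe. As 25.2% of all probes passed this test, a call in it does not set FBXO32 apart. For each FBXO32 probe it was lost without LDM replicate 2, LDM replicate 3, PMM replicate 2 or PMM replicate 3 (adjusted p 0.0694 to 0.154), without a filter on detection (0.145 to 0.159) and under normexp background correction (0.920 to 0.926). A_72_P110111 and A_72_P302954 also lost it under quantile normalization (0.0594 and 0.0635) and with the 75th percentile taken over probes detected on all arrays (0.0509 and 0.0566), and A_72_P302954 when spots with a flagged background were left out (0.157). Conversely, FOXO1 passed the F test under quantile normalization (0.0439). The dim FOXO3 probe passed it with median centring (0.0412), and also without LDM replicate 1 or without PMM replicate 1.

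Other signals moved with the replicate number too. The 7 adipocyte markers summed to 80.3 in LDM and 85.0 in PMM in replicate 1, against 237 to 262 in the other replicates. FABP4 had the highest signal of the 7 and followed that order, whereas LPL was highest in replicate 1 in PMM (4.39, against 3.66 and 3.75). The 4 fibroblast markers summed to 98.6, 165 and 222 in LDM and to 72.4, 132 and 155 in PMM for replicates 1, 2 and 3. The 6 endothelial markers summed to 55.5, 96.3 and 171 in LDM and to 97.8, 112 and 169 in PMM. Both sums were thus lowest where FBXO32 was highest and highest where it was lowest. DCN had the highest signal of the 4 fibroblast markers and made up most of their sum. It followed that order, as did COL1A1 and COL1A2, whereas COL3A1 was lowest in replicate 3 in both muscles (1.43 in LDM, 0.71 in PMM). The 3 macrophage markers summed to 7.24 and 9.05 in replicate 1 and to 19.0 to 29.2 in the others. Their part in the spread of FBXO32 was not tested. Replicate number coincided with scan day, and the sources used here do not say that a number stands for one pig, so pig and scan day cannot be told apart.

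**Figure D3:**
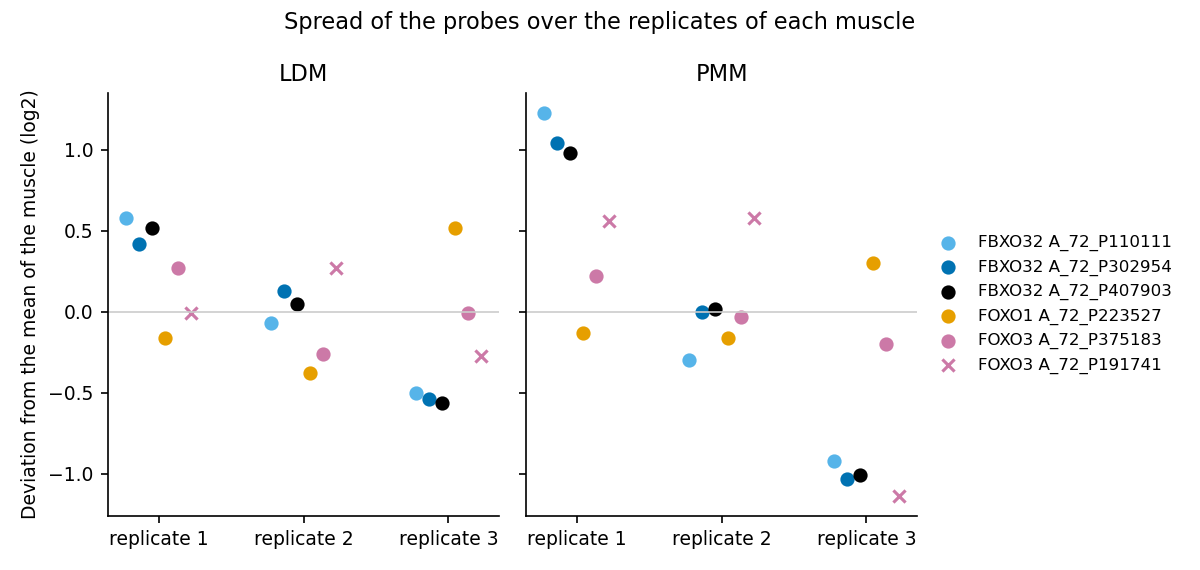
Signal of each array minus the mean of its muscle (y axis, log2) by replicate (x axis) for the 6 probes, in LDM (left) and PMM (right). In both muscles the FBXO32 probes lie above the mean in replicate 1 and below it in replicate 3, and FOXO1 lies above it in replicate 3.

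The signals of FBXO32, FOXO1 and FOXO3 did not run closely together across the arrays. Between the brightest probes Pearson's r over the 6 arrays was 0.55 for FBXO32 and FOXO3, -0.59 for FBXO32 and FOXO1, and 0.23 for FOXO1 and FOXO3. These are descriptions over arrays that share pigs, scan days and scaling. Of 2711 other named genes detected on all arrays, those whose signal was most like that of FBXO32 were TOX4 (r = 0.998), the HSP90 co-chaperone PTGES3 (0.997) and the phosphatase inhibitor ENSA (0.992). For FOXO1 they were SREBF1, the lipogenic transcription factor (0.989), the chemokine receptor CXCR3 (0.986) and the motor protein MYO5A (0.983). For FOXO3 they were the growth factor EGF (0.996), JPT1 (0.985) and the polyamine regulator AZIN1 (0.982). With 6 arrays, 107, 23 and 21 genes had an r above 0.95 with FBXO32, FOXO1 and FOXO3, so that such a likeness does not single out a gene.

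Genes around the 4 members were described through 6 lists with 134 genes, of which 67 had a probe and were tested. None of the 67 was called (0 of all 25835 probes were), and 1 of them, TNNI1, had an unadjusted p under 0.05. With the replicate block 0 of 67 were called over all probes, with a lowest adjusted p of 0.22, and 11 (16.4%) had an unadjusted p under 0.05, against 11.2% of all probes. When only the brightest probe of each named gene was tested with the block, 196 of 2830 genes (6.93%) were called, among them 4 of the 67. These were TNNI1 and PPARGC1A, which were higher in PMM, and FST and INSR, which were lower. FOXO3 had an adjusted p of 0.234 in that fit, FOXO1 0.539 and FBXO32 0.84. Without the block, 0 of 2830 genes were called. Of the 66 list genes with a value on all arrays, 20 (30.3%) were lower in PMM in all 3 pairs and 8 (12.1%) were higher, against 18.6% and 17.5% of all probes. The list genes were detected on every array, whereas all probes include unnamed probes and probes detected in only 1 muscle. Shares over named genes alone were not computed. The counts of list genes moved with the scaling. They were 11 lower and 3 higher under normexp background correction (6.32% and 5.73% of all probes), 26 and 9 under quantile normalization (21.6% and 16.6%), and 19 and 5 with median centring (21.9% and 10.1%). Markers of other cell types moved between the muscles as well. All 4 fibroblast markers were lower in PMM in all 3 pairs (median -0.62, 0 of 4 under normexp). All 6 endothelial markers were above 0 (median 0.36). Adipocyte markers were mixed, with 5 of 7 below 0 (median -0.62, -0.04 under normexp). LPL (1.13, without overlap) and FABP4 (0.11) were higher in PMM in all 3 pairs. The summed adipocyte signal was 80.3, 244 and 237 in LDM and 85, 262 and 248 in PMM for replicates 1, 2 and 3. The part of these cell types in the differences of the lists was not tested.

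Partners of the ligases were tested for 6 of 23 genes listed. Their median difference was 0.08, where the median of all probes was -0.03, and 4 of 6 were above 0; under normexp background correction the median was -0.10. MDM2, the ubiquitin ligase of p53, read 0.66, 0.24 and -0.02 in LDM and 0.10, -0.21 and -0.71 in PMM (-0.56, SE 0.34; -0.35 without PMM replicate 3), lower in all 3 pairs. The ligase TRAF6 differed by 0.23 (SE 0.33; 0.05 without LDM replicate 1, 0.14 without LDM replicate 2, 0.50 without LDM replicate 3) and was higher in PMM in 2 of 3 pairs. FBXO21, like FBXO32 an F-box subunit of an SCF complex, read -0.27, -0.59 and -0.91 in LDM and 0.17, -0.34 and -0.95 in PMM (0.22, SE 0.37). It was also higher in PMM in 2 of 3 pairs. Without PMM replicate 1 it was at -0.05 and without PMM replicate 3 at 0.51, in fits that did not pair the arrays. Leaving out LDM replicate 3 gave 0.06, and leaving out LDM replicate 1 gave 0.38.

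Upstream regulators, that is, the insulin and IGF1 pathway with AMPK, sirtuin and other cofactors of FOXO, were tested for 12 of 26 genes, with a median of -0.08. PPARGC1A, the coactivator of mitochondrial biogenesis that also restrains FOXO3, had the largest difference of this list. It read 2.55, 2.10 and 1.81 in LDM and 3.82, 2.69 and 2.66 in PMM (0.91, SE 0.41; 0.53 without PMM replicate 1), without overlap. The insulin receptor INSR read -2.62, -2.67 and -3.29 in LDM and -3.42, -3.36 and -3.89 in PMM (-0.70, SE 0.33), also without overlap. In the fit of the genes with the block the adjusted p was 0.011 for PPARGC1A and 0.0344 for INSR. Over all probes it was 0.24 and 0.252 with the block and 1 for both without it. Under normexp background correction INSR was at 0.06. PRKAA2, the catalytic AMPK subunit of muscle, differed by -0.57 (SE 0.37; -0.34 without LDM replicate 1, -0.29 without PMM replicate 3) and was lower in all 3 pairs.

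Glucocorticoid, TGF-beta and NF-kB inputs were tested for 16 of 20 genes, with a median of -0.10. FST, the inhibitor of myostatin and activins, read 2.48, 4.27 and 4.12 in LDM and 1.73, 3.53 and 2.98 in PMM (-0.88, SE 0.60). Its adjusted p was 0.011 in the fit of the genes with the block, and over all probes 0.22 with the block and 1 without it. The difference was -0.37 without PMM replicate 1, -0.55 without LDM replicate 2 and -1.45 without LDM replicate 1. FST was lowest in replicate 1 in both muscles. MSTN, or myostatin, the negative regulator of muscle mass, read 1.26, 0.95 and 1.09 in LDM and 0.58, 0.82 and -0.42 in PMM (-0.77, SE 0.38). The values of MSTN did not overlap between the muscles, but it was not called in any fit, and its difference was -0.40 without PMM replicate 3. Its receptor ACVR2B differed by -0.37 (SE 0.34; -0.22 without LDM replicate 3, -0.24 without PMM replicate 2, -0.62 without LDM replicate 2). The glucocorticoid receptor NR3C1, which acts on the ligase genes together with FOXO1, was even between the muscles (0.02).

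FOXO targets outside autophagy were tested for 9 of 21 genes and had the lowest median of the 6 lists, -0.29, with 7 of 9 below 0. Under 3 other scalings this median was -0.41 to -0.30, again the lowest of the 6. None of the 9 was called in any of the fits named above. CDKN1A, the cell cycle inhibitor p21, read 6.32, 7.44 and 7.05 in LDM and 6.23, 5.93 and 6.43 in PMM (-0.74, SE 0.37; -0.49 without LDM replicate 2). DDIT4, the inhibitor of mTORC1 known as REDD1, read 6.50, 6.20 and 6.94 in LDM and 6.10, 5.72 and 6.06 in PMM (-0.59, SE 0.32; -0.39 without LDM replicate 3), without overlap. CDKN1B, which encodes p27, read 5.29, 5.32 and 5.10 in LDM and 5.01, 5.05 and 4.68 in PMM (-0.32, SE 0.29; -0.21 without PMM replicate 3), without overlap. All 3 were lower in PMM in each pair. The antioxidant genes CAT and SOD2 were the 2 of the list above 0, at 0.12 and 0.22. SOD2 had no value on LDM replicate 3, so that 0.22 sets 2 arrays of LDM against 3 of PMM, and in the fit of the genes with the block it was at 0.53 (adjusted p = 0.243).

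Autophagy and lysosome genes were tested for 10 of 24, with a median of -0.13 and 9 of 10 below 0. The mitophagy receptor BNIP3L, a FOXO3 target, read 1.98, 1.70 and 2.13 in LDM and 1.58, 1.51 and 1.33 in PMM (-0.46, SE 0.29), without overlap. ATG4A, a protease that processes LC3 family proteins, differed by -0.31 (SE 0.43), and ATG5, part of the conjugate that lipidates them, by -0.23 (SE 0.46). Both were higher in PMM in 1 of 3 pairs. Both changed direction without PMM replicate 3, to 0.03 and 0.18, in fits that did not pair the arrays and kept LDM replicate 3. ATG5 also did so without LDM replicate 1, to 0.08, with PMM replicate 1 kept.

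Reported substrates of FBXO32 and TRIM63 were tested for 14 of 20 genes, with a median of 0.15 (-0.07 under normexp background correction), and most of them are contractile proteins. The slow troponin TNNI1 read 7.27, 7.22 and 7.42 in LDM and 8.93, 7.81 and 8.30 in PMM (1.05, SE 0.35, unadjusted p = 0.0171; adjusted p = 0.00958 in the fit of the genes with the block, 0.264 with the block over all probes). The slow myosin light chain MYL2 read 8.91, 8.67 and 8.81 in LDM and 9.78, 9.25 and 9.22 in PMM (0.62, SE 0.30). MYH2, the fast oxidative myosin, differed by 0.51 (SE 0.43; 0.18 without PMM replicate 1, 0.30 without LDM replicate 3, 0.84 without LDM replicate 1). These 3 genes were higher in PMM in all 3 pairs, and TNNI1 and MYL2 did not overlap. Both are also among the slow fibre markers, of which all 7 tested were higher in PMM in all 3 pairs (4 of 7 under normexp background correction). MYOD1, a reported FBXO32 substrate that is not a contractile protein, differed by 0.22.

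**Figure D4:**
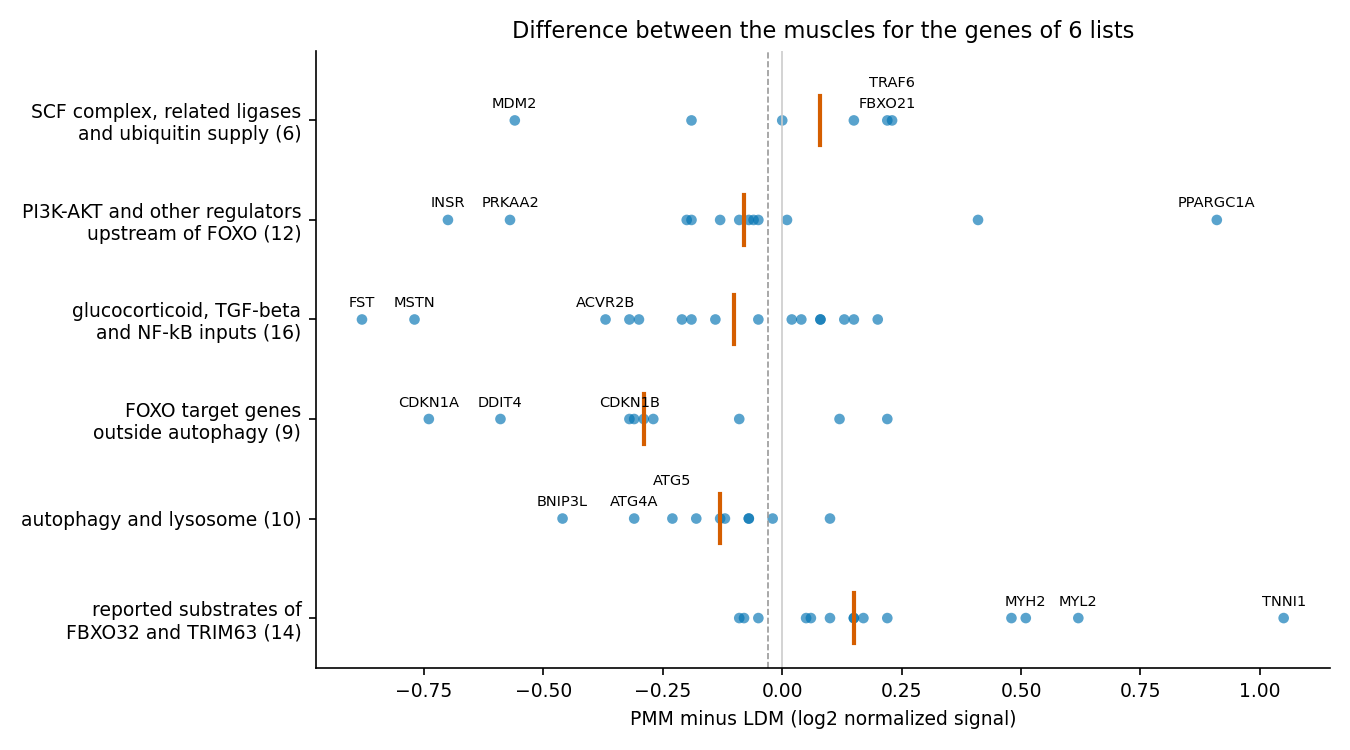
Difference PMM minus LDM (x axis, log2 normalized signal) of each tested gene, by its brightest probe, in 6 lists (y axis, number of tested genes in brackets). Points are genes, orange bars list medians, the dashed line the median of all probes (-0.03), and the 3 genes with the largest absolute difference per list are named. List medians lie between -0.29 for the FOXO targets and 0.15 for the reported substrates, and the medians of the substrates and of the partners of the ligases turn below 0 under normexp background correction.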

How the data were processed

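Total RNA was labelled with Cy3 and hybridized to Agilent pig arrays. The authors deposited linear intensities from Agilent Feature Extraction 10.5.1.1, background-subtracted, detrended and not normalized between arrays. The deposited value table held the same intensities within 0.005 units. For the arrays the paper refers to an earlier report, not used here, and to the MultiExperiment Viewer. After removal of control and outlier spots, repeated spots were averaged and log2 signals scaled to the 75th percentile. Probes detected above background by every array of either muscle (3 arrays), with at least 2 values per muscle, were tested with limma 3.58.1 (R 4.3.3; lmFit, eBayes, two-sided, Benjamini-Hochberg over 25835 probes, threshold 0.05). Probes were named through a RefSeq table of Sscrofa11.1 or the names in the files, which named 5075 of 43603 probes. Of the tested probes, 21667 had no name. A gene stands for its brightest probe. One gene of the lists is not reported here.

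Deviations from the muscle mean correlated at 0.62, 0.70 and 0.56 between arrays of equal replicate number. All exceeded the 0.1 set as a limit, so equal numbers were treated as pairs in the pair differences and in the fits with the replicate block. The main limma test, the permutation and the fits with an array left out did not use the pairing. The study took both muscles from each of 3 pigs and calls the arrays biological replicates. On simulated arrays limma recovered 42% of 200 changed probes among 25725, and 32%, 60% and 76% at log2 changes of 2, 3 and 4. The members and lists were chosen with earlier results of these data known. The genes named are the members, per list the 3 genes that differed most, and the 3 most similar genes per member. Others are named because their values were seen, NR3C1, CAT, SOD2 and MYOD1 among them. Alternatives covered background correction, scaling, detection filter, outlier spots, pairing, slide, several probes of a gene and each array left out. Spots with a flagged background were left out as an alternative chosen after seeing the data.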

Additional observations from a re-analysis of the deposited data

How the results depend on the processing

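The count of member probes called was 0 under all 21 alternatives. The count of all probes called, 0, became 9 with median centring, 7 with quantile normalization, 1 with normexp background correction, 16 with the replicate block and 327 with the slide as a random block. It was 0 to 1 when single arrays were left out (1 without LDM replicate 2 and 1 without PMM replicate 1). The list genes called went from 0 to 4 with one probe per gene and the replicate block together, and stayed at 0 with either alone; the cause was not tested. The block changed no call of a member.

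Directions turned as follows. Leaving out single arrays moved the differences of the FBXO32 probes A_72_P110111, A_72_P302954 and A_72_P407903 over -0.98 to 0.09, -0.80 to 0.24 and -0.62 to 0.38, that of FOXO1 over -0.44 to 0.01, and those of the FOXO3 probes over -0.14 to 0.73 (A_72_P191741) and -0.55 to -0.29 (A_72_P375183). ATG4A ranged from -0.67 to 0.03 and ATG5 from -0.53 to 0.18. A_72_P191741 was at -0.07 with the slide as a random block, -0.13 without PMM replicate 1 and -0.14 without PMM replicate 2. FOXO1 was at 0.03 without spots with a flagged background, which removed LDM replicate 3, and A_72_P407903 could then not be tested. INSR was at 0.06 with normexp, and FBXO21 was at -0.05 to 0.51 with single arrays left out. Fits with a single array left out did not pair the arrays and kept its partner in the other muscle. Fits without a whole pair were not run. For the turns listed here the cause was not tested.

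Normexp correction fitted a background mean of -308 intensity units on LDM replicate 2 and -532 on PMM replicate 1, against -5 to 18 on the other arrays. It raised the 10th percentile of intensity there to 424 and 620, against 61 to 115. The median difference of all probes was 0.10 with it, -0.10 with median centring and -0.05 with quantile normalization. With normexp, FBXO32 was lower in PMM in the pair of replicate 1 (-0.62 to -0.57), and FOXO1 and A_72_P375183 in 2 of 3 pairs. The 3 arrays per muscle limit every value.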
